A study of Mus musculus with 40 samples.

Results

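The complement and microglia genes described here are 10 named genes of the amygdala transcriptome, of 43629 genes in the count table. They were taken by name, with Ensembl identifiers matched to GRCm38 gene symbols, and the choice of names was made with earlier results of these data known. They fall into 3 subunits of C1q (C1qa, C1qb and C1qc), 2 further complement components (C4b and C3) and 5 receptors or surface proteins of microglia (Csf1r, Cx3cr1, P2ry12, Trem2 and Tmem119). Total RNA of the amygdala of male Swiss Webster mice was sequenced to ask how the microbiota and a social encounter act on gene expression. Conventionally colonised mice (CON), germ-free mice (GF) and mice born germ-free and colonised at weaning (exGF) were taken either naive or 1 hr after a three-chamber social interaction test (SI).

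All mice were 10 weeks old, F1 offspring, and the left amygdala was used. CON mice were raised with a normal microbiota and GF mice in isolators, while exGF mice were moved at weaning onto bedding used by CON mice and housed beside them. There were 4 libraries each of naive CON, GF and exGF. After social interaction there were 8 libraries of CON mice (CON-SI), 12 of GF mice (GF-SI) and 8 of exGF mice (exGF-SI), which makes 40 in all. Each naive library held RNA pooled from 2 animals and each SI library came from 1 animal, so that social interaction and pooling change together in every SI comparison and cannot be told apart. The SI mice had also been handled and placed in a new arena, which is not described for the naive mice.

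C1q starts the classical complement pathway. It is built from 3 kinds of chain, is made in the brain mainly by microglia, and tags synapses and debris for removal, after which C4 is cleaved and C3 is deposited and read by receptors on phagocytes. Microglia, the resident macrophages of the brain, depend on signals through Csf1r for their survival, sense neurons through Cx3cr1 and extracellular nucleotides through P2ry12, and are recognised in tissue by Tmem119. A germ-free upbringing is known to alter the maturation of these cells.

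The 3 C1q genes lie side by side on mouse chromosome 4, all on the minus strand (GRCm38). C1qb spans 136880129 to 136886187, C1qc 136889804 to 136893065 and C1qa 136895917 to 136898803. Since 2 of these neighbours, C1qa and C1qc, were the members called in conventional mice after social interaction, the sequences before the start sites of this cluster are shown where the RefSeq promoter table held them, which was the case for 6 of the 10 members (C1qb, C1qc, C3, Cx3cr1, P2ry12 and Trem2). Both are from RefSeq on GRCm38.p6, on the minus strand and read 5′ to 3′, at chr4:136886201-136886450 for C1qb and chr4:136893066-136893164 for C1qc, and for C1qc only the stretch outside the gene model is given. Capitals mark GAGGAA or its reverse complement, the core of sites that PU.1, the master regulator of the macrophage lineage, and other ETS factors bind.

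C1qb: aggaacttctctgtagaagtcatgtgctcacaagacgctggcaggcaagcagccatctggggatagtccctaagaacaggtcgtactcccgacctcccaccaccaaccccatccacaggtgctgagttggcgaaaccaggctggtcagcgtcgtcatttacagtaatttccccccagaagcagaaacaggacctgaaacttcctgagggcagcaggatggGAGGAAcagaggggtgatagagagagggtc

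C1qc: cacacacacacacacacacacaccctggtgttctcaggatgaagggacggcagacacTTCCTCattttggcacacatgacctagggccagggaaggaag

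GAGGAA was found on either strand in 3 of the 6 promoters searched (C1qb, C1qc and Trem2), and in 28.3% of 32851 mouse promoters of the same length. Its first base lay 30 bases before the RefSeq start site of C1qb and 193 before that of C1qc. The RefSeq start site of C1qc lies inside the gene model, past the end of the stretch shown. The NF-kappa-B pattern was in 5 of the 6, against 50.8% of all promoters. The AP-1 pattern TGANTCA was in 1 of the 6 (Trem2), against 7.81%. The MEF2 pattern was in 1 of the 6 (Cx3cr1), against 3.69%. The CRE pattern TGACGTCA and the interferon response pattern were in none of the 6, against 1.79% and 3.44%. These matches describe letters in a window and are not sites of binding.

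Library totals ran from 7291810 to 19961958 counts, with a median of 14512696. In 5 libraries a single transcript, Gm42418, which overlaps ribosomal RNA sequence, took more than 5% of the counts (6.23% to 32.3%): the CON pools P1 and P3, the exGF pools P1 and P2, and the animal exGF-S7. The other 35 libraries were at most at 1.75%. Transthyretin, Ttr, a product of the choroid plexus, was above 500 CPM (counts scaled to a common library size) in 5 libraries, exGF-S4, exGF-S7, exGF-S9, GF-S8 and GF-S12, of which exGF-S7 was also rich in Gm42418. No pair of libraries was identical. The amygdala nucleus markers were present in every group, with median sums of 145 to 190.3 CPM, and so were markers of nearby striatum, whose summed level in 1 GF pool (GF-P1, 487 CPM) stood above the 163 to 348 CPM of all other libraries.

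The members spanned a wide range of abundance. CPM here rest on TMM effective library sizes, and levels are compared between genes only after division by exon length. Over the 40 libraries C1qa was the most abundant member at 18.4 CPM per kb, followed by P2ry12 at 15.1, Csf1r at 9.17, C1qb at 8.38, C1qc at 5.03, Cx3cr1 at 4.95 and Tmem119 at 3.87 CPM per kb. C4b reached 1.86, Trem2 0.592 and C3 0.0615 CPM per kb. Summed by role, the C1q subunits (31.8 CPM per kb) and the receptors and surface proteins (33.7) were at a like level, while C4b and C3 together reached 1.92. C3 was at the limit of detection, with 0 to 15 counts per library, and passed the filter on low counts in no comparison, so that 9 of the 10 members were tested throughout.

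**Figure D1:**
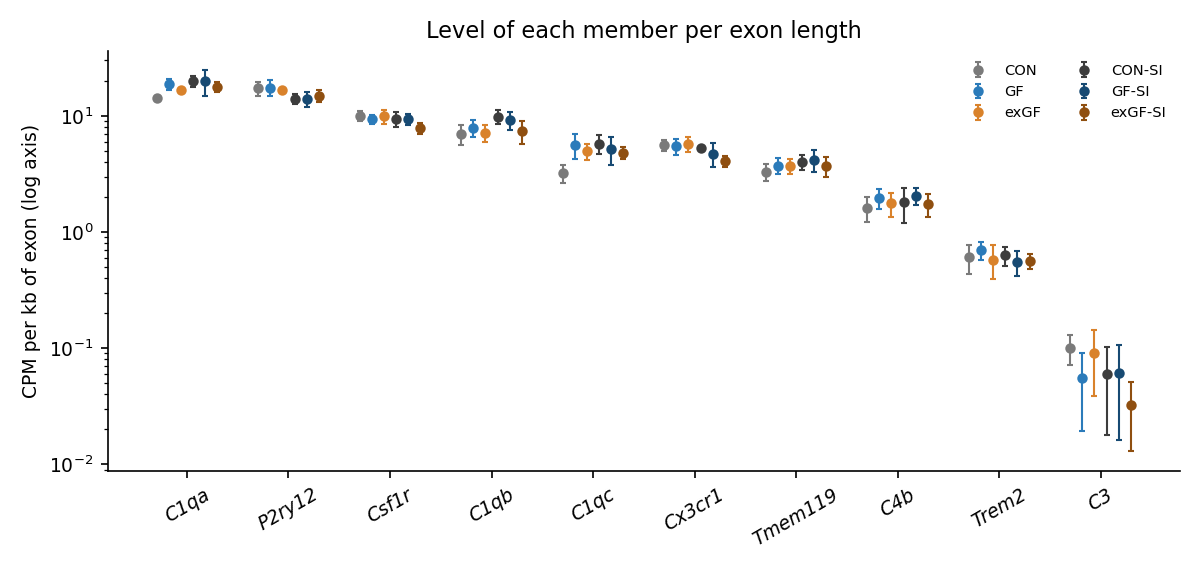
Mean level of each member in the 6 groups, in CPM per kb of exon on a log axis, with bars for the SD over 4 to 12 libraries. C1qa and P2ry12 led with 18.4 and 15.1 CPM per kb over all libraries, and C3 lay lowest at 0.0615.

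The other microglia genes, 24 genes such as Aif1 and Siglech that are no members, overlapped in their summed level between the groups. Medians were 288 to 318 CPM in the 6 groups, and single libraries ran from 248 to 411 CPM. The highest was GF-S1, with CON-S5 next at 348 CPM. GF-S1 also had the highest values of GF-SI for C1qa (33.8 CPM), C1qb (14.2), C1qc (15.1), Cx3cr1 (32.8), P2ry12 (46.6) and Tmem119 (14.6), so that 1 animal sets the top of those ranges. None of the 24 genes was at 0 throughout a group. Of the 8 markers of border macrophages, which also make C1q and Csf1r, none was at 0 throughout a group either, and their sums had medians of 31.3 to 41.9 CPM. In bulk tissue, fewer cells of a type and less RNA per cell cannot be told apart.

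C1q was lowest in naive conventional mice. The 4 CON pools had C1qa at 14.9, 14.0, 15.3 and 14.3 CPM. The GF pools had C1qa at 16.6, 19.8, 21.3 and 20.3 CPM, and the exGF pools at 16.3, 18.2, 17.9 and 16.8 CPM. Every GF and every exGF pool was thus above every CON pool. After social interaction the lowest, median and highest C1qa values were 18.3, 20.6 and 25.7 CPM in CON-SI, 14.3, 19.6 and 33.8 CPM in GF-SI and 14.7, 18.6 and 21.2 CPM in exGF-SI. CON-SI lay wholly above CON, while GF-SI and exGF-SI overlapped with their own naive groups. Of the 36 libraries that were not naive CON, 34 were above the highest CON pool.

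C1qc, which codes for the C chain, was likewise lowest in naive CON mice. It stood at 4.50, 6.63, 6.93 and 6.67 CPM in the CON pools. It stood at 8.54, 10.8, 14.7 and 9.47 CPM in the GF pools and at 8.47, 8.68, 9.40 and 11.7 CPM in the exGF pools. Again neither group overlapped with CON, and CON-P1, the library richest in Gm42418, was the lowest of all. Its lowest, median and highest values were 8.87, 10.5 and 15.4 CPM in CON-SI, 6.81, 8.75 and 15.1 CPM in GF-SI and 7.79, 9.34 and 11.3 CPM in exGF-SI. Here too 34 of the 36 other libraries were above the highest CON pool.

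C1qb, the B chain, was less separated. Its values were 6.48, 6.09, 8.99 and 8.65 CPM in CON, 7.76, 7.19, 10.3 and 8.87 CPM in GF and 6.27, 7.18, 8.55 and 9.06 CPM in exGF. These 3 naive groups overlapped. The lowest, median and highest values were 8.06, 10.7 and 12.6 CPM in CON-SI, 8.42, 9.19 and 14.2 CPM in GF-SI and 5.18, 8.46 and 10.3 CPM in exGF-SI, which held the lowest library of all.

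**Figure D2:**
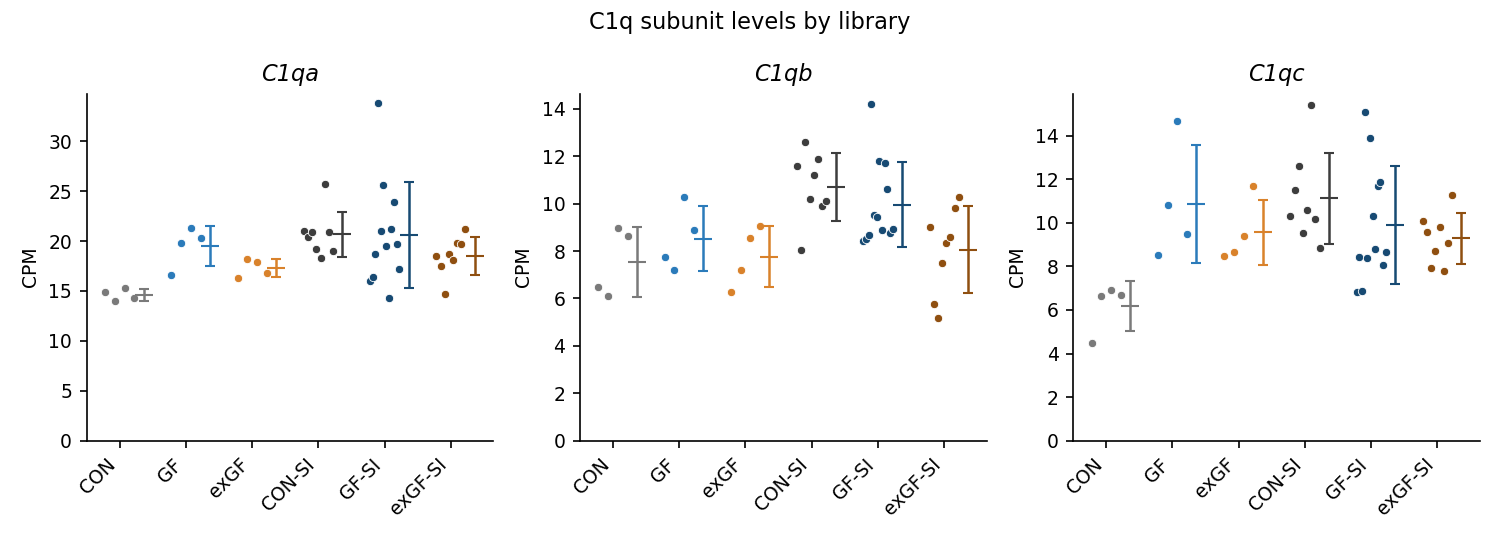
CPM of C1qa, C1qb and C1qc in each library (points), with the mean and SD of the group beside them. The 4 CON pools lie between 14.0 and 15.3 CPM for C1qa and between 4.50 and 6.93 CPM for C1qc, below all GF, exGF and CON-SI libraries.

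In order of the group means, C1qa and C1qb ran from CON-SI through GF-SI, GF, exGF-SI and exGF to CON, and C1qc ran from CON-SI through GF, GF-SI, exGF and exGF-SI to CON. Neighbours in these orders differed by less than their SD and overlapped, with 2 exceptions. CON lay apart from the group next to it for C1qa (14.6 ± 0.591 against 17.3 ± 0.882 CPM in exGF, SD, n = 4 each) and for C1qc (6.18 ± 1.13 CPM, n = 4, against 9.30 ± 1.17 CPM in exGF-SI, n = 8). The C1qa values rest on 83 to 201 counts in CON and 148 to 297 in exGF. Their SDs are below counting noise and so understate the spread.

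Tests were made with edgeR's quasi-likelihood test on the counts of all genes, with p-values adjusted over all genes tested (Benjamini-Hochberg) and called at an adjusted p below 0.1. The comparisons of GF against CON, exGF against CON and CON-SI against CON share the 4 CON pools and are not independent of each other. In CON mice, 2 of 9 tested members were called after social interaction, both higher and both C1q subunits, while 3.72% of 15220 genes were called in that comparison. C1qa rose by 0.50 on the log2 scale (SE 0.095, edgeR adjusted p = 0.0217), or 1.41-fold with a nominal 95% interval of 1.24 to 1.61. C1qc rose by 0.82 (SE 0.16, edgeR adjusted p = 0.0223), or 1.77-fold with an interval of 1.42 to 2.20. C1qb was at 0.49 (SE 0.14) and missed the threshold (edgeR adjusted p = 0.103). The CPM of the groups did not overlap for 2 of the 9 tested members, C1qa and C1qc, and for 3.55% of all genes tested.

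These 2 calls were kept when any 1 of the 12 libraries was left out, with C1qa between 0.45 and 0.52 and C1qc between 0.73 and 0.88. They were lost without the Gm42418-rich pools CON-P1 and CON-P3, which leave 2 CON pools: C1qa was then at 0.55 (edgeR adjusted p = 0.156) and C1qc at 0.75 (edgeR adjusted p = 0.197), and the number of genes called in all fell from 566 to 26. The single fit over the 6 groups called C1qb beside C1qa and C1qc (edgeR adjusted p = 0.0846), and 969 of 16111 genes in all. DESeq2 called 4 members, with C1qb (adjusted p = 0.0464) and P2ry12 (adjusted p = 0.0752) beside C1qa and C1qc, and 5.89% of all genes.

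The other 7 tested members were not called in CON mice after social interaction. P2ry12 was lower by 0.31 (log2 difference -0.31, SE 0.097, edgeR adjusted p = 0.119). Tmem119 was at 0.28, C4b at 0.14 and Trem2 at 0.01, and Csf1r and Cx3cr1 were both at -0.11. The median log2 difference of the 9 tested members was 0.14, and that of all genes -0.0058.

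In naive mice edgeR called no member in any of the 3 comparisons. For GF against CON, 0 of 9 tested members passed edgeR's test, where 0.142% of 14811 genes were called. At an unadjusted p under 0.05 there were 2 members, C1qa and C1qc, and 1636 of the 14811 genes. C1qa was at 0.41 (SE 0.11, edgeR adjusted p = 0.275) and C1qc at 0.77 (SE 0.19, edgeR adjusted p = 0.254). DESeq2 called 1 member there, C1qc (adjusted p = 0.0494), and 0.927% of all genes. Without the filter on low counts edgeR also called C1qc, with 205 of 25937 genes called in all. C4b was at 0.25, C1qb and Tmem119 at 0.16, Trem2 at 0.15, P2ry12 at -0.0016, Cx3cr1 at -0.05 and Csf1r at -0.11 on the log2 scale. The CPM of the groups did not overlap for 2 members, against 5.93% of all genes tested.

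For exGF against CON, 0 of 9 passed with edgeR and 0 with DESeq2, and 0.104% of 14463 genes were called by edgeR. At an unadjusted p under 0.05 there were 2 members and 5.43% of all genes. C1qc was at 0.61 (SE 0.16, edgeR adjusted p = 0.480) and C1qa at 0.24 (edgeR adjusted p = 0.841). The groups did not overlap for these 2 members, against 3.58% of all genes tested. The other members were at -0.08 (Trem2) to 0.16 (Tmem119), with C1qb at 0.04, C4b at 0.08, Cx3cr1 at 0.02, Csf1r at -0.02 and P2ry12 at -0.06. For exGF against GF, 0 of 9 passed with edgeR or DESeq2, and 0% of 14669 genes were called by edgeR. None of the 9 was at an unadjusted p under 0.05, against 9.42% of all genes. The log2 differences were -0.24 for Trem2, -0.18 for C1qa, -0.17 for C4b, -0.16 for C1qc, -0.12 for C1qb, -0.06 for P2ry12, -0.004 for Tmem119, 0.07 for Cx3cr1 and 0.09 for Csf1r.

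In GF and exGF mice edgeR called none of the C1q genes after social interaction. In GF mice C1qa was at 0.07 and C1qb at 0.21 on the log2 scale, and C1qc at -0.14. In exGF mice C1qa was at 0.10, C1qb at 0.04 and C1qc at -0.05. These values depended on a correction for GC content and length. With it, C1qa was at 0.24, C1qb at 0.39 (called, edgeR adjusted p = 0.0767) and C1qc at 0.04 in GF mice, and C1qa at 0.25, C1qb at 0.17 and C1qc at 0.07 in exGF mice, none of the others called.

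Whether the responses differed was tested as a contrast in 1 fit over the 6 groups. The C1qc response was lower in GF than in CON mice by 0.96 (log2 difference of responses -0.96, SE 0.25), which did not pass (edgeR adjusted p = 0.118). That of C1qa was at -0.43 (edgeR adjusted p = 0.257) and that of C1qb at -0.27. With the correction for GC content and length these contrasts were at -0.75, -0.22 and -0.07. No member was called by edgeR in this contrast, where 0.0931% of 16111 genes were called, and 2 members and 15.8% of all genes were at an unadjusted p under 0.05. DESeq2 called C1qc alone among the members (adjusted p = 0.0345), and 4.23% of all genes.

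With 1 library left out, the C1qc contrast was at -1.06 to -0.79 over 40 fits and passed edgeR's test in 8 of them. The other members were at -0.36 (Trem2), -0.12 (Tmem119), -0.11 (Cx3cr1), -0.07 (C4b), -0.02 (P2ry12) and 0.11 (Csf1r). For exGF against CON the C1qc response differed by -0.88 (edgeR adjusted p = 0.719) and that of Cx3cr1 by -0.39 (edgeR adjusted p = 0.847). C1qa was there at -0.40, C1qb at -0.45, Tmem119 at -0.29, Csf1r at -0.23, C4b at -0.16, Trem2 at -0.07 and P2ry12 at 0.15. In this contrast 0 members and 0% of genes were called by edgeR and 0 members by DESeq2, and 3 members and 5.83% of all genes were at an unadjusted p under 0.05. For exGF against GF, 0 members and 0% of genes were called by edgeR and 0 members by DESeq2, with 1 member, Csf1r (-0.34), and 11.4% of all genes at an unadjusted p under 0.05. The others were at -0.28 (Cx3cr1) to 0.29 (Trem2). By edgeR, the C1q response of CON mice was thus not shown to differ from that of GF or exGF mice, and by DESeq2 it differed from that of GF mice for C1qc alone.

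**Figure D3:**
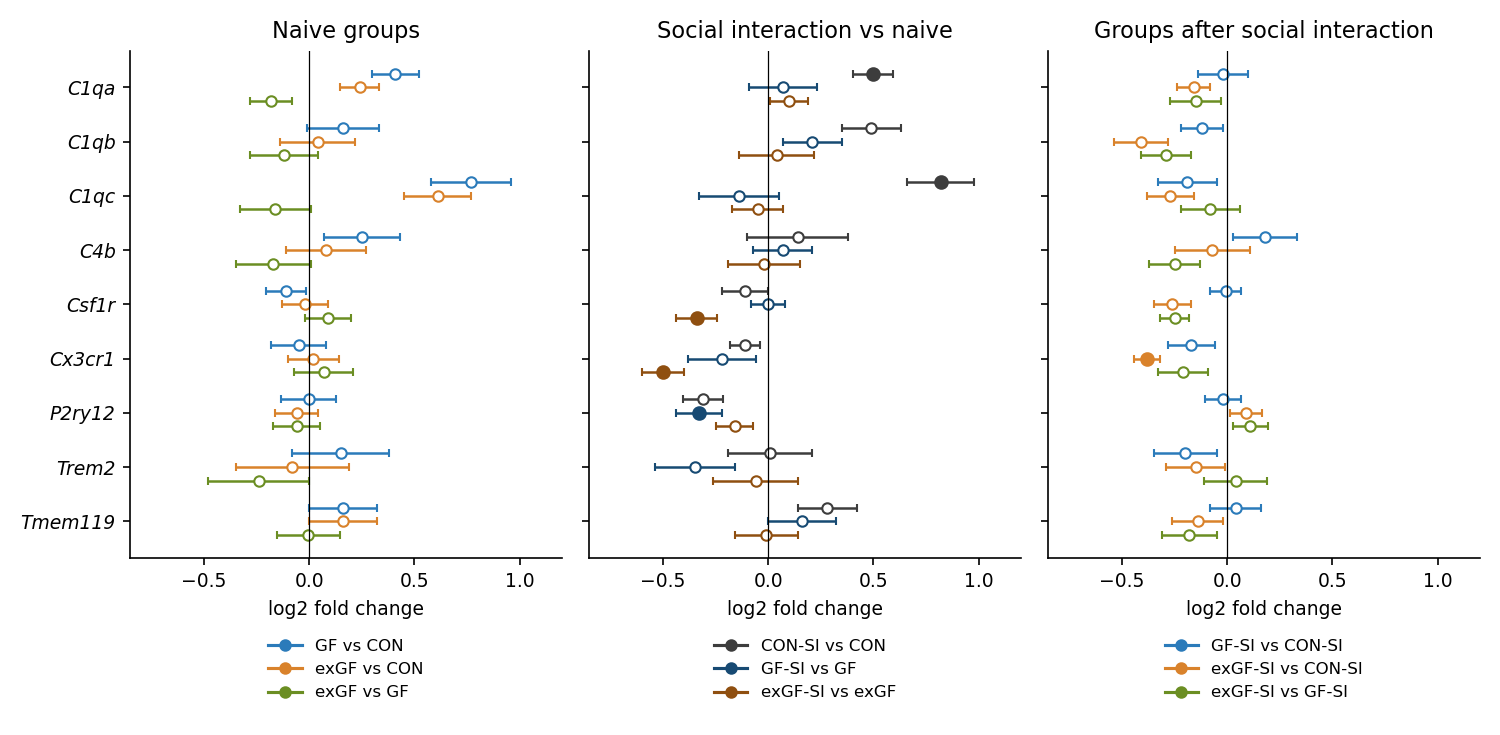
Log2 fold change (points) and SE (bars) of the 9 tested members in the 9 pairwise comparisons, where filled points passed an edgeR adjusted p of 0.1 and open points did not. C1qa and C1qc after social interaction in CON mice (0.50 and 0.82) are the filled points to the right, and Cx3cr1, Csf1r and P2ry12 give those to the left.

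Set against other genes of microglia, C1q was again lowest in naive CON mice. Summed over its 3 subunits, C1q was at 28.4 ± 2.46 CPM in CON (SD, n = 4, range 25.9 to 31.2) and at 34.6 to 42.5 CPM on average in the other 5 groups. The log2 of this sum less the mean log2 level of the 24 other microglia genes was 2.00 ± 0.09 in CON (SD, n = 4, range 1.86 to 2.07). It was 2.42 in GF and 2.33 in exGF, and after social interaction its mean was 2.55 for CON-SI, 2.52 for GF-SI and 2.45 for exGF-SI. All 36 libraries outside naive CON, at 2.12 to 2.91, were above the highest CON pool. The ratio is a description without a test.

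The same ratio for the 5 receptors and surface proteins had no such step in CON. It was 4.28 ± 0.14 in CON, 4.22 in GF and 4.31 in exGF, and after social interaction its mean was 4.12 for CON-SI, 4.14 for GF-SI and 4.11 for exGF-SI. Values of SI and naive libraries overlapped. Within C1q, the C chain took 21.7% ± 3.13 of the summed CPM in CON (SD, n = 4) and 24.3% to 27.7% in the other groups, and the A chain 48.7% to 51.8% in all 6.

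**Figure D4:**
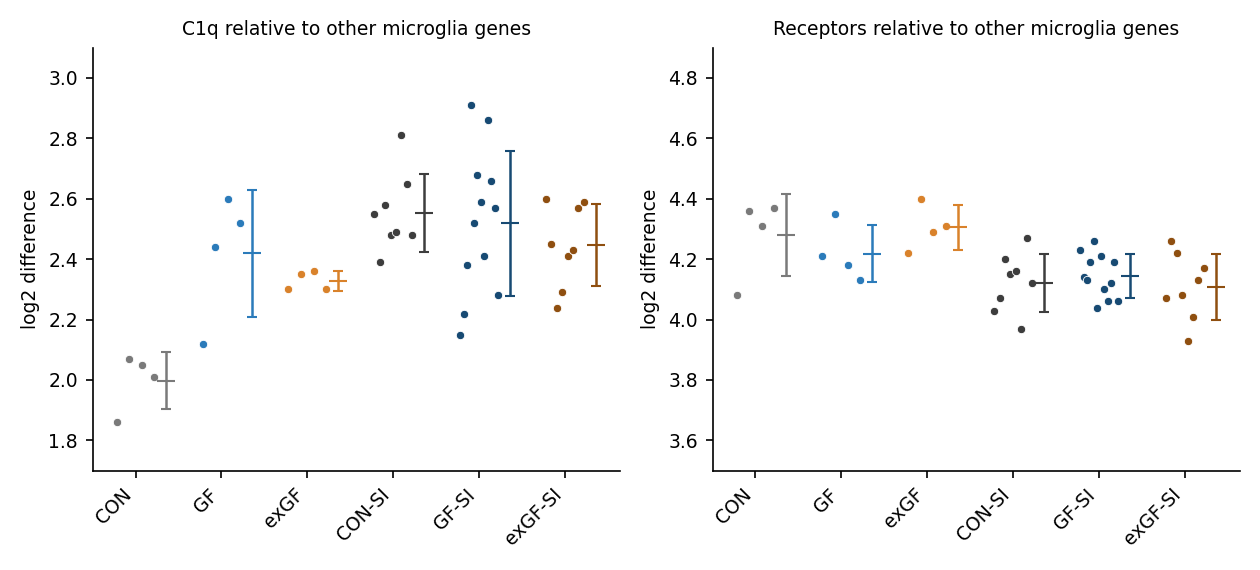
Level of summed C1q (left) and of the 5 receptors and surface proteins (right) less the mean of 24 other microglia genes, as a log2 difference per library, with the mean and SD of each group. The CON pools lie at 1.86 to 2.07 on the left, below all others, and within the range of the other groups on the right.

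Among the receptors, the fractalkine receptor Cx3cr1 (chromosome 9, 119901616 to 120069879, minus strand) was lower in exGF mice after social interaction. It stood at 24.1, 22.2, 26.7 and 28.4 CPM in CON, at 27.4, 26.5, 25.5 and 18.8 CPM in GF and at 20.2, 27.3, 26.8 and 28.6 CPM in exGF. The naive groups overlapped. The lowest, median and highest values were 23.0, 23.7 and 24.2 CPM in CON-SI, 12.0, 22.1 and 32.8 CPM in GF-SI and 15.0, 18.3 and 20.6 CPM in exGF-SI. All 8 exGF-SI animals lay below all 8 CON-SI animals, which were tightly grouped, and below 3 of the 4 exGF pools. GF-SI spanned the ranges of both exGF-SI and CON-SI. The CON-SI values were at 23.6 ± 0.417 CPM (SD, n = 8) and rest on 267 to 446 counts. This SD is below counting noise and so understates the spread, on which the lack of overlap with exGF-SI leans.

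Against naive exGF, Cx3cr1 fell by 0.50 on the log2 scale in exGF-SI (SE 0.10, edgeR adjusted p = 0.0245), to 0.709-fold with a nominal 95% interval of 0.618 to 0.813. It was 1 of 2 members called there, both lower, where 7.61% of 15264 genes were called. The members not called there were P2ry12 at -0.16, Trem2 at -0.06, C4b at -0.02 and Tmem119 at -0.0089, beside the C1q genes. Against CON-SI, Cx3cr1 was lower in exGF-SI by 0.38 (log2 difference -0.38, SE 0.063, edgeR adjusted p = 0.0115), or 0.771-fold with an interval of 0.708 to 0.840. It was the 1 member called of 9, where 1.31% of 14937 genes were called. It was also the 1 member whose groups did not overlap, against 0.221% of all genes tested.

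The difference from CON-SI passed in all 16 fits with 1 library left out, at -0.40 to -0.34. The fall from naive exGF passed in 10 of 12 such fits and was lost without exGF-P2 or exGF-P4, with the highest edgeR adjusted p at 0.121. The summed level of choroid plexus markers was 31.8 to 1499 CPM in exGF-SI, 37.3 to 79.2 CPM in CON-SI and 22.8 to 53.1 CPM in exGF, with medians of 63.6, 46.7 and 45.4 CPM. Single animals set the top of the exGF-SI range: exGF-S4 (954 CPM), exGF-S7 (849 CPM) and exGF-S9 (1499 CPM). Their Cx3cr1 was at 18.3, 16.5 and 20.3 CPM, beside a group median of 18.3 CPM. In GF-SI the animals GF-S12 (815 CPM) and GF-S8 (1042 CPM) were also high in these markers. Without the Ttr-rich libraries Cx3cr1 was at -0.50 against exGF (edgeR adjusted p = 0.0499) and at -0.38 against CON-SI (edgeR adjusted p = 0.0404). Without the Gm42418-rich libraries it was at -0.58 (edgeR adjusted p = 0.0693) and -0.35 (edgeR adjusted p = 0.0183). Of the Cx3cr1 exon bases, 78 are shared with Gm33858 on the opposite strand, and the counting did not use strand.

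Csf1r, the receptor for colony-stimulating factor 1 and interleukin 34, was the other member called in exGF mice. It was at 47.3, 61.7, 54.4 and 65.6 CPM in the exGF pools and at 38.5, 45.5 and 53.7 CPM (lowest, median and highest) in exGF-SI. The groups overlapped through exGF-P1. Csf1r fell by 0.34 on the log2 scale (SE 0.099, edgeR adjusted p = 0.0750), to 0.791-fold. The call held in 5 of 12 fits with 1 library left out. It was lost without the Gm42418-rich libraries (-0.41, edgeR adjusted p = 0.160), without the Ttr-rich ones (-0.34, edgeR adjusted p = 0.116), without the filter on low counts (edgeR adjusted p = 0.104) and with a correction for GC content and length (-0.28, edgeR adjusted p = 0.135).

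In CON mice Csf1r was at 50.2, 58.3, 62.1 and 61.3 CPM naive and at 47.8, 51.6 and 72.0 CPM (lowest, median and highest) in CON-SI, and the groups overlapped. GF pools were at 48.5 to 58.5 CPM and GF-SI animals at 44.9 to 64.0 CPM, which also overlapped. Against GF-SI, Csf1r in exGF-SI was at -0.25 (edgeR adjusted p = 0.161), and against CON-SI at -0.26 (edgeR adjusted p = 0.191). DESeq2 called the first of these (adjusted p = 0.0547), with 2.08% of all genes called. Of the Csf1r exon bases, 873 are shared with Hmgxb3 on the opposite strand, and without strand their reads cannot be told apart.

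P2ry12 (chromosome 3, 59216272 to 59262871), the purinergic receptor of surveying microglia, was called in GF mice after social interaction. It was at 40.5, 48.0, 51.9 and 36.7 CPM in the GF pools and at 26.0, 35.2 and 46.6 CPM (lowest, median and highest) in GF-SI, and the groups overlapped. P2ry12 fell by 0.33 on the log2 scale (SE 0.11, edgeR adjusted p = 0.0823), to 0.797-fold with an interval of 0.683 to 0.930. It was 1 of 9 tested members called there, where 13.7% of 15443 genes were called. Beside the C1q genes, the others were Trem2 at -0.35, Cx3cr1 at -0.22, Csf1r at 0.0006, C4b at 0.07 and Tmem119 at 0.16. The call held in 9 of 16 fits with 1 library left out. It was lost without the Ttr-rich libraries (-0.32, edgeR adjusted p = 0.142), without the filter on low counts (edgeR adjusted p = 0.129) and once GC content and length were corrected for (-0.26, edgeR adjusted p = 0.182), where C1qb was called instead (0.39, edgeR adjusted p = 0.0767).

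In CON mice P2ry12 was at 36.9, 41.0, 48.3 and 49.8 CPM naive and at 31.3, 34.4 and 41.7 CPM (lowest, median and highest) in CON-SI. In exGF mice it was at 39.6, 42.2, 44.0 and 43.7 CPM naive and at 33.4, 37.4 and 44.3 CPM in exGF-SI. Each naive group overlapped with its SI group. The log2 differences in the 3 kinds of mice were -0.31 (CON), -0.33 (GF) and -0.16 (exGF), and the contrasts between these responses were at -0.02 for GF less CON, 0.15 for exGF less CON and 0.17 for exGF less GF, none of them called. No member had groups that did not overlap in GF or exGF mice after social interaction, against 3.19% and 4.49% of all genes tested.

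**Figure D5:**
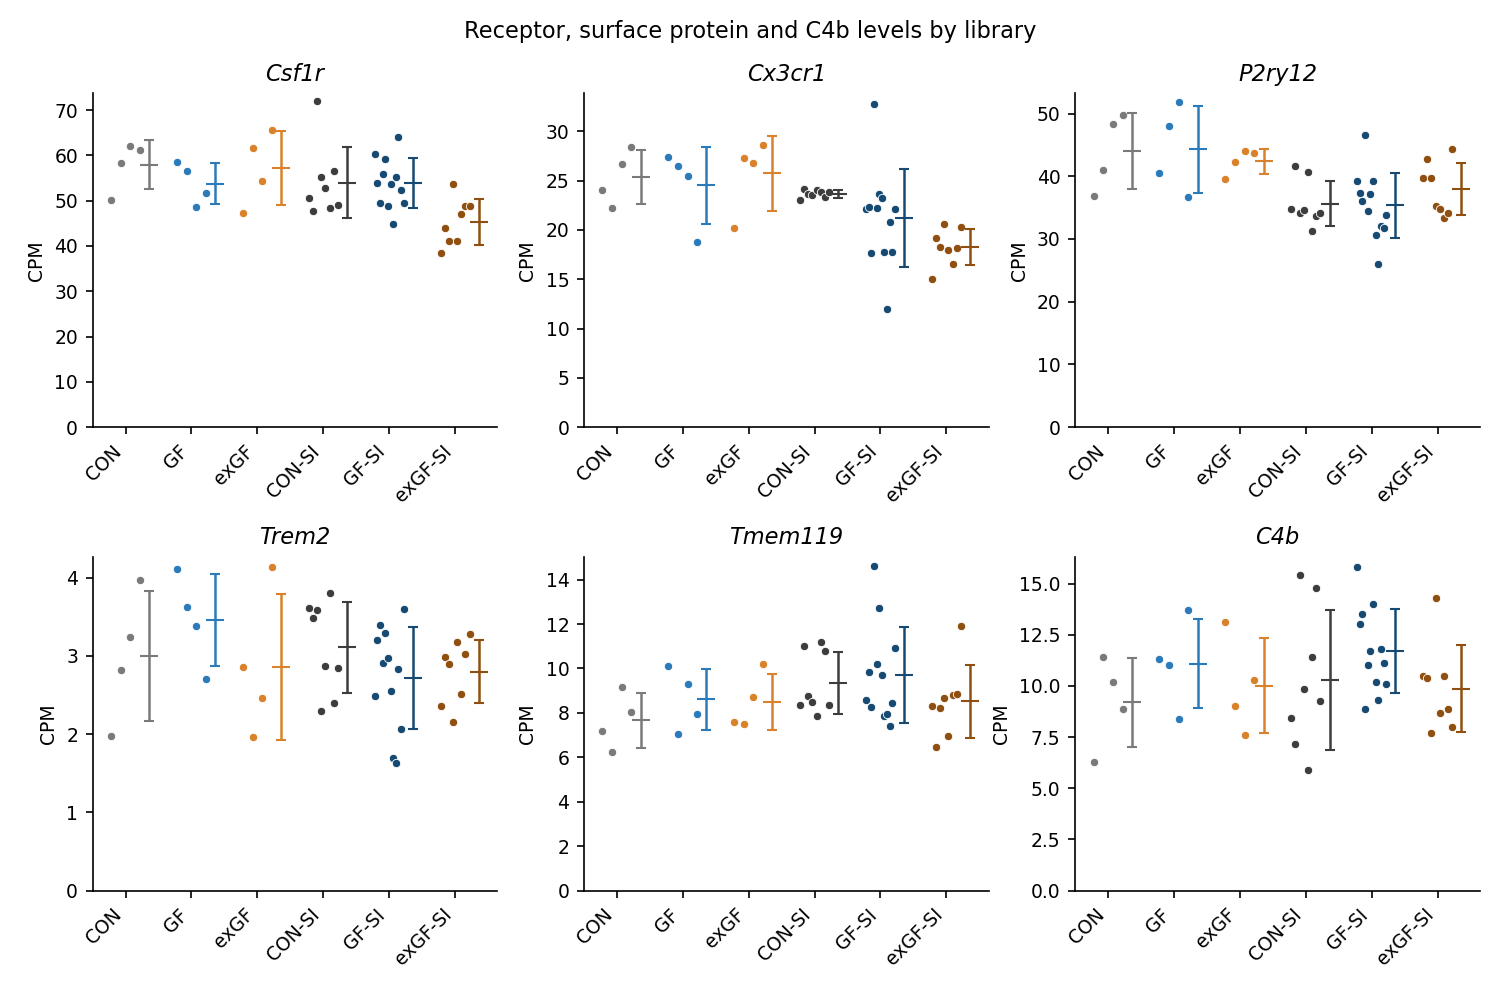
CPM of Csf1r, Cx3cr1, P2ry12, Trem2, Tmem119 and C4b in each library (points), with the mean and SD of the group beside them. The 8 exGF-SI animals lie at 15.0 to 20.6 CPM for Cx3cr1, below the CON-SI animals at 23.0 to 24.2 CPM.

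Trem2 and Tmem119 were called in no comparison. Trem2 (chromosome 17, 48346401 to 48354147), a lipid-sensing receptor that signals through Tyrobp, was at 1.63 to 4.14 CPM over the 40 libraries, and its group means ran from 2.72 ± 0.649 CPM in GF-SI (SD, n = 12) to 3.45 ± 0.587 CPM in GF (SD, n = 4). Tmem119 (chromosome 5, 113793729 to 113800516), a surface protein that marks resident microglia, was at 6.25 to 14.6 CPM, with means from 7.66 ± 1.24 CPM in CON (SD, n = 4) to 9.70 ± 2.15 CPM in GF-SI (SD, n = 12). For both, every neighbour in the order of group means lay within the SD.

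Of the later complement components, C4b (chromosome 17, 34728380 to 34743882), the target of the activated C1 complex, was at 5.87 to 15.8 CPM and was called nowhere. Its group means ran from 9.17 ± 2.17 CPM in CON (SD, n = 4) to 11.7 ± 2.05 CPM in GF-SI (SD, n = 12), within the spread of the libraries. Reads of C4b are uncertain because its neighbour C4a is a near-identical copy. C3 (chromosome 17, 57203970 to 57228136), the central component, had means of 0.165 ± 0.0995 CPM in exGF-SI (SD, n = 8) to 0.517 ± 0.148 CPM in CON (SD, n = 4), from at most 15 counts in a library. In CON-SI, 1 animal was high in markers of other cells and in these genes: CON-S12, with the highest summed level of meningeal markers (411 CPM) and of border macrophage markers (78.3 CPM), also had the highest C4b (15.4 CPM), C3 (0.793 CPM) and Csf1r (72.0 CPM) of its group. CON-S3, lowest in both marker sums (31.5 and 10.6 CPM), had the lowest C4b (5.87 CPM) but Csf1r at 52.8 CPM, above the group's median. The part of these cells in the values was not tested.

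Between the groups taken after social interaction, Cx3cr1 was the 1 member called by edgeR. For GF-SI against CON-SI, 0 of 9 tested members were called by edgeR or DESeq2, where edgeR called 1.10% of 15078 genes. None of the 9 and 16.5% of all genes were at an unadjusted p under 0.05. The log2 differences were -0.20 for Trem2, -0.19 for C1qc, -0.17 for Cx3cr1, -0.12 for C1qb, -0.02 for C1qa and P2ry12, -0.0073 for Csf1r, 0.04 for Tmem119 and 0.18 for C4b. For exGF-SI against GF-SI, 0 of 9 were called by edgeR, 1 by DESeq2 (Csf1r), where edgeR called 0.0995% of 15068 genes. At an unadjusted p under 0.05 there were 3 members and 12.9% of all genes. The log2 differences were -0.29 for C1qb, -0.25 for C4b and Csf1r, -0.21 for Cx3cr1, -0.18 for Tmem119, -0.15 for C1qa, -0.08 for C1qc, 0.04 for Trem2 and 0.11 for P2ry12. For exGF-SI against CON-SI, C1qb was at -0.41 (SE 0.13, edgeR adjusted p = 0.162) and C1qc at -0.27 (edgeR adjusted p = 0.282). C1qa was at -0.16, Trem2 at -0.15, Tmem119 at -0.14, C4b at -0.07 and P2ry12 at 0.09. DESeq2 called C1qb there (adjusted p = 0.0879) beside Cx3cr1, and 3.33% of all genes. The single edgeR fit over the 6 groups also called C1qb there (edgeR adjusted p = 0.0869), and 522 of 16111 genes in all.

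The wider complement pathway was looked at in 4 lists that hold no members, together with the ligands and adaptors of the receptors, other microglia genes and genes of activated microglia, 94 genes in all. In the 3 naive comparisons 0 of 62 tested genes of these lists were called by edgeR, that is for GF against CON, exGF against CON and exGF against GF. At an unadjusted p under 0.05 there were 11, 5 and 8 of them (17.7%, 8.06% and 12.9%), beside 1636 of 14811 genes in the first of these comparisons and 5.43% and 9.42% of all genes in the other two. DESeq2 called 1, 0 and 1 of them, beside 0.927% of all genes in the first comparison.

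After social interaction edgeR called 2 of 67 tested list genes in CON mice (2.99%, beside 3.72% of all genes), 4 of 65 in GF mice (6.15%, beside 13.7%) and 5 of 67 in exGF mice (7.46%, beside 7.61%). None of these shares is above that of all genes, so the named genes are values and not a result about the lists. In CON mice, none of 5 tested genes that start the classical and lectin pathways, 1 of the alternative and terminal pathways, 5 complement receptors or 15 regulators was called by edgeR or DESeq2. Properdin, Cfp, which stabilises the alternative convertase, was at 0.79 (edgeR adjusted p = 0.174), and C3ar1, the receptor for the C3a fragment, at 0.55 (edgeR adjusted p = 0.332). Of the 24 other microglia genes, 1 rose and 1 fell. Mertk, a receptor for the uptake of dying cells that astrocytes also carry, rose by 0.43 (edgeR adjusted p = 0.0871), and Sall1, a transcription factor of microglial identity, fell by 0.52 on the log2 scale (edgeR adjusted p = 0.0953). Mertk kept its call in 3 and Sall1 in 2 of 12 fits with 1 library left out. None of 6 ligands and adaptors was called, with Il34, a ligand of Csf1r, at 0.40 (edgeR adjusted p = 0.202), and none of 11 genes of activated microglia.

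In GF mice after social interaction, 0 of 4 pathway starters, 0 of 1 alternative and terminal components, 0 of 5 receptors and 1 of 15 regulators were called. The regulator Cd46 fell by 0.72 on the log2 scale (edgeR adjusted p = 0.0539). Of the other microglia genes, Mertk rose by 0.46 (edgeR adjusted p = 0.0414) and P2ry13, a further purinergic receptor, fell by 0.56 on the log2 scale (edgeR adjusted p = 0.0523). Cd63, a lysosomal membrane protein made by many cells, rose by 0.75 (edgeR adjusted p = 0.00623) as 1 of 10 tested genes of activated microglia, and 0 of 6 ligands and adaptors passed. The Cd46 and P2ry13 calls were lost without the Ttr-rich libraries and each without single GF pools, while Cd63 passed in all 16 fits with 1 library left out.

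In exGF mice after social interaction, 1 of 5 complement receptors and 1 of 15 regulators were called, and none of 5 pathway starters or 1 alternative and terminal component. Cr1l, a membrane regulator that binds C3b, rose by 0.35 (edgeR adjusted p = 0.0329), and Serping1, the inhibitor of C1, fell by 1.04 on the log2 scale (edgeR adjusted p = 0.0454). Serping1 is also made by meninges, whose markers summed to 129 to 270.1 CPM in exGF-SI and 161 to 268 CPM in exGF. Of 6 ligands and adaptors, Csf1, the ligand of Csf1r, fell by 0.47 on the log2 scale and Apoe, a ligand of Trem2 made mainly by astrocytes, fell by 0.39 (edgeR adjusted p = 0.0389 for each). Mertk rose by 0.52 (edgeR adjusted p = 0.0413) as 1 of 24 other microglia genes, and 0 of 11 genes of activated microglia passed. Csf1 stood at 9.16 to 11.3 CPM in exGF and at 6.75 to 9.28 CPM in exGF-SI, so that the groups overlapped. Without the Gm42418-rich libraries none of these list genes was called in CON or exGF mice by edgeR, in fits that called 26 and 155 genes in all. All 5 calls of list genes in exGF mice were also lost without exGF-P2 or without exGF-P4.

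Between the groups after social interaction, Cfp in GF-SI was below its CON-SI level by 0.86 (log2 difference -0.86, edgeR adjusted p = 0.00830). It was at 2.06 to 4.33 CPM in CON-SI and at 0.914 to 1.99 CPM in GF-SI. Cd63 was higher in GF-SI by 0.59 (edgeR adjusted p = 0.0770). Laptm5, a lysosomal protein of blood-derived and microglial cells, was lower in exGF-SI than in CON-SI by 0.87 (log2 difference -0.87, edgeR adjusted p = 0.0368), with 3.95 to 7.83 CPM against 6.50 to 13.4 CPM, which overlap. Cfp and Laptm5 passed in all fits with 1 library left out (20 and 16) and Cd63 in 8 of 20. As shares these are 2 of 66 list genes (3.03%) in GF-SI against CON-SI, beside 1.10% of all genes, and 1 of 66 (1.52%) in exGF-SI against CON-SI, beside 1.31%. The other genes of the 7 lists were not called by edgeR in these comparisons. At an unadjusted p under 0.05 there were 20 (30.3%, beside 16.5% of all genes) in the first and 11 (16.7%, beside 13.5%) in the second. DESeq2 called 6 list genes in the first, where it called 521 of 15901 genes, and 4 in the second, beside 3.33% of all genes. For exGF-SI against GF-SI edgeR called 0 of 65, with 15 (23.1%, beside 12.9% of all genes) at an unadjusted p under 0.05 and 6 called by DESeq2. In the 3 contrasts between responses edgeR called 0 of 71, with 11, 3 and 8 (15.5%, 4.23% and 11.3%, beside 15.8%, 5.83% and 11.4% of all genes) at an unadjusted p under 0.05 and 4, 0 and 0 called by DESeq2.

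Of 10 lists of markers of other cells and regions, edgeR called up to 4 genes in a comparison after social interaction. Against the naive groups, 3 of 72 tested markers were called in CON mice (4.17%, beside 3.72% of all genes). There were 4 of 73 in GF mice (5.48%, beside 13.7%) and 4 of 72 in exGF mice (5.56%, beside 7.61%). In CON mice these were Hbb-bs of red blood cells (0.60), Cldn5 of endothelium (-0.45) and Folr1 of choroid plexus (-2.03), each lost without one of several single libraries. In GF mice they were Cd163 of border macrophages (0.81), Flt1 of endothelium (0.52), Stmn2 of neurons (0.21) and Adora2a of striatum (-1.97). The Adora2a value rests on GF-P1, the pool high in striatal markers: without it the value was 0.49 and not called. In exGF mice they included Cldn5 (-0.64), Ttr (3.93) and Etv1 of the amygdala (-0.38). The Cldn5 and Etv1 calls were lost without exGF-P2, and that of Ttr held in 3 of 12 fits with 1 library left out.

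Ttr (3.37) and Sostdc1 (2.85) of choroid plexus passed in exGF-SI against CON-SI, as 2 of 70 tested markers (2.86%, beside 1.31% of all genes). Both rest on the Ttr-rich animals exGF-S4, exGF-S7 and exGF-S9: the medians were 49.9 against 32.4 CPM for Ttr and 1.30 against 0.839 CPM for Sostdc1, and each call was lost without any 1 of the 3, as it was without any 1 of 7 CON-SI animals. No gene of the astrocyte, oligodendrocyte or meningeal lists was called in any comparison by edgeR. No marker was called by edgeR in the naive comparisons, that is for GF against CON, exGF against CON and exGF against GF. At an unadjusted p under 0.05 there were 15, 7 and 8 of them (21.4%, 10.4% and 11.9%). Of all genes these were 1636 of 14811, 5.43% and 9.42%, so that the marker share was the higher in each comparison. DESeq2 called 4, 1 and 0 markers, beside 0.927% of all genes for GF against CON. Summed levels of border macrophage markers were 33.2 to 39.9 CPM in CON and 10.6 to 78.3 CPM in CON-SI, which spans the CON range. The part of any of these cells in the C1q and receptor values was not tested.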

How the data were processed

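Total RNA of 40 mouse amygdala libraries in 6 groups was sequenced by the authors as ribosome-depleted, stranded, paired-end libraries. The authors deposited 1 table of raw read counts per Ensembl gene, made per the study's methods and the labels' processing notes with Trimmomatic 0.32, STAR 2.4.0f1 on GRCm38.p3 and HTSeq 0.6.0, without use of strand. Replicates were not merged beyond the pooling of RNA, and no column was left unused. Groups were taken from the labels, and columns were matched to groups by name.

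From the counts, 42548 of 43629 identifiers were matched to symbols (GENCODE vM21). Each pairwise comparison was fitted on its own libraries with edgeR 4.0.16 (filterByExpr, TMM, glmQLFit, glmQLFTest, R 4.3.3), with Benjamini-Hochberg adjustment over all genes tested and a threshold of 0.1 as in the study. Responses were compared as contrasts in 1 fit over the 6 groups. The SE is the log2 fold change over the root of F. Fold intervals are nominal 95% intervals from this SE and a normal quantile, and are narrower than the F-test implies. Libraries of 7291810 to 19961958 counts gave 25 to 1362 counts for the C1q genes and Csf1r. The scripts were tested on simulated data.

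The members and the gene lists were chosen with earlier results of these data known. By the rule for named genes, the 10 members were followed in every comparison, and of each other list the count called was given with at most 4 genes of smallest p. Comparisons in which no list gene was called are given by counts alone. Alternatives were DESeq2 1.42.0 with and without a fold change prior, the omission of the low-count filter, RLE in place of TMM, a fit of all 6 groups at once, leaving out each library, and leaving out the libraries with more than 5% Gm42418. A correction for GC content and length (a spline with 5 degrees of freedom, for 99.2% of tested genes) and leaving out the libraries above 500 CPM Ttr were added after seeing the data. Within a group every pair of libraries differed by more than counting noise when taken over their genes together, which need not hold for a single gene. The values of some list genes are not reported here.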

Additional observations from a re-analysis of the deposited data

Results flagged for a closer look

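In 6 of the 50 groups of 4 to 10 libraries looked at, 1 library of a member stood apart from the rest of its group by Dixon's criterion, which chance alone meets in about 1 in 20 groups. GF-SI, with 12 libraries, was not looked at in this way. C1qa was at 25.7 CPM in CON-S5, with the nearest CON-SI library at 21.0 CPM. C1qc was at 4.50 CPM in CON-P1, with the nearest CON pool at 6.63 CPM, and Gm42418 took 32.3% of the counts of that library. C4b was at 14.3 CPM in exGF-S5, with the nearest exGF-SI library at 10.5 CPM. In CON-S12, C3 was at 0.793 CPM against 0.380 CPM in the next library of CON-SI, and Csf1r at 72.0 CPM against 56.5 CPM. Tmem119 was at 11.9 CPM in exGF-S9, the library with the highest Ttr level (1347 CPM), with the nearest exGF-SI library at 8.85 CPM. The part of Gm42418, of meninges or of choroid plexus in these values was not tested.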

How the results depend on the processing

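No called member changed direction under any alternative, over 2916 recomputed fold changes, of which 2160 left out 1 library. Values that passed in neither fit changed sign in 146 cases, 106 of them with 1 library left out. Calls were lost in 25 and gained in 26 cases, of which 9 and 15 came from alternatives other than a left-out library, and 0 of 120 recomputed group levels moved by 1 SD or more. DESeq2 with or without its prior called 1 member for GF against CON (C1qc), 4 for CON-SI against CON (C1qa, C1qb, C1qc and P2ry12), 2 for exGF-SI against CON-SI (C1qb and Cx3cr1) and 1 for exGF-SI against GF-SI (Csf1r), and without the prior 1 for the GF less CON response (C1qc). Without the filter on low counts there were 1 member for GF against CON (C1qc), 0 for GF-SI against GF and 1 for exGF-SI against exGF (Cx3cr1). Over all genes, these fits called 205 of 25937, 1502 of 27409 and 722 of 26717. Without Gm42418-rich libraries there were 0 for CON-SI against CON and 1 for exGF-SI against exGF (Cx3cr1), with 26 of 15887 and 155 of 15854 genes called. Without Ttr-rich libraries there were 0 for GF-SI against GF and 1 for exGF-SI against exGF (Cx3cr1), and 1 for the latter with the correction for GC content and length, under which C1qb took the place of P2ry12 in GF-SI against GF. For GF-SI against GF, 1429 of 15354 genes were called without Ttr-rich libraries and 2095 of 15443 with the correction. For exGF-SI against exGF these were 1133 of 14699 and 626 of 15264. The single fit over the 6 groups gave 2 for exGF-SI against CON-SI (C1qb and Cx3cr1) and 3 for CON-SI against CON (C1qa, C1qb and C1qc). It called 522 and 969 of 16111 genes in these comparisons. The cause was not tested.

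With 1 library left out, the number of members called ran from 0 to 1 for GF-SI against GF (0 without GF-P2, GF-P3, GF-S12, GF-S2, GF-S5, GF-S7 or GF-S8), from 0 to 2 for exGF-SI against exGF (0 without exGF-P2 or exGF-P4), from 0 to 1 for exGF-SI against GF-SI (1 without exGF-S5) and from 0 to 2 for the GF less CON response (2 without GF-S1). C1qb passed in CON-SI against CON without CON-S11. No paired analysis was possible because the column names carry no replicate number that links libraries across groups. The study describes no pairs either: naive libraries were pools of 2 animals, and SI libraries came from single animals. With 4 pools a group, the low depth of Trem2 (11 to 73 counts) and C3 (0 to 15) limits what could be detected for them.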

Other observations

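Over the 40 libraries, deviations from the group means were compared as a description, with points that share library preparation and depth. The 3 C1q subunits varied together (Pearson's r of 0.58 to 0.69 for the 3 pairs), and Cx3cr1 and P2ry12 were the most alike of the receptors (r = 0.70), while the 15 pairs of a C1q subunit and a receptor were at 0.11 to 0.49. C4b was at -0.12 to -0.10 with the C1q subunits. The genes most like the mean of the C1q subunits were Selenop (r = 0.75), Siglech (0.74), Aldoc (0.72), Slc2a1 (0.72) and Fam107a (0.70), and the other microglia genes had a median r of 0.35. Siglech is the 1 gene of these on a microglia list, and Aldoc is best known from astrocytes. The genes most like the mean of the receptors and surface proteins were Abhd4 (0.74), Szrd1 (0.71), Gpr37l1 (0.71), Rhbdd1 (0.70) and Vsir (0.70), beside a median of 0.40 for the other microglia genes. Those most like C4b were Jag1 (0.73), Aldh1l2 (0.72), Ptpn13 (0.71), Myof (0.70) and Bicc1 (0.69), beside a median of -0.06 for the other microglia genes. Those most like C3, at its few counts, were Sytl4 (0.74), Sparc (0.70), Rassf8 (0.67), Arhgap12 (0.65) and Soga1 (0.63).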
